A study of Mus musculus with 4 samples.

Results

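Enzymes that break down amino acids were examined in the livers of mice with and without Nrg4, a hormone-like ligand of ErbB receptors that fat tissue is known to secrete. The set is a list of 39 genes, chosen by function but with earlier results of these data known. It was grouped into 8 routes: transamination, tyrosine, histidine, serine and glycine, tryptophan, lysine, proline and the branched-chain amino acids. A gene was measured where a probe set of the array was annotated with that gene alone, and where a gene had several such probe sets the brightest on average was used. Of the 39 genes, 36 were measured, out of 22180 genes in the whole table. Gstz1 shared its probe set with a neighbouring gene, and no probe set was annotated with Sds or Sdsl alone.

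Both genotypes were male, wild type (WT) or Nrg4 knockout (KO), and received the NASH diet D09100301 of Research Diets, which produces non-alcoholic steatohepatitis. Feeding started at 3 months of age and lasted 20 weeks, and livers were taken from animals that were not fasted. Liver RNA was pooled before it was put on Affymetrix Mouse Gene ST 2.1 arrays, with 2 independent pools per genotype and 4 arrays in all. The sources used here state neither how the Nrg4 allele was made nor how many animals went into a pool, and no group on another diet was analysed, so every comparison is within the diet. Values are log2 expression values with an unknown zero point, so differences between pools are given rather than levels compared between genes.

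The liver is the main organ that oxidises amino acids other than the branched-chain ones, which lose their amino group mostly in muscle. Transaminases and dehydratases remove the nitrogen, which enters the urea cycle, and the carbon skeletons pass through dedicated routes to pyruvate, acetyl-CoA or intermediates of the citric acid cycle. Many of these genes are known targets of glucagon, glucocorticoids and liver-enriched transcription factors, and their activity in hepatocytes sets how fast amino acids are cleared.

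Over the 12458 tested genes, pools of the same genotype correlated at 0.979 (WT) and 0.975 (KO), and pools of different genotypes at 0.966 to 0.973. These are correlations across genes and serve as a description. Nrg4 itself stood at 2.54 and 2.30 in WT and at 0.93 in both KO pools, a log2 difference of -1.49 ± 0.20 (SE; limma, adjusted p = 0.181). The probe set may or may not lie in the disrupted part of the gene, which the sources used here do not say. The 10 hepatocyte markers were between 6.33 and 10.9 in all pools, far above the table median of 0.54, while those of kidney, neutrophils and pancreas were between -0.18 and 1.14.

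The breakdown enzymes were lower in the KO livers as a group, by small amounts each. Of the 36 measured genes, 32 had a lower KO mean and 4 a higher one, and the median KO minus WT difference was -0.29 on the log2 scale, against 0.01 over all tested genes. In 25 genes both KO pools lay below both WT pools, in 1 gene (Gpt2) both lay above, and in 10 the genotypes overlapped. That is 69.4% of the enzymes with lower and separate pools, where 19.5% of all tested genes were lower without overlap and 22.2% were higher without overlap. Among tested genes at least as bright as the median enzyme, 42.5% were lower without overlap. Over the enzymes, KO pool 1 was further from WT, with a median of -0.38 against the WT mean, than KO pool 2, with a median of -0.24. In each KO pool 29 of the 36 genes lay below both WT pools. Of the 12458 tested genes, 4787 did so in KO pool 1 and 3801 in KO pool 2.

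No enzyme passed the test. The test was limma's moderated test on 2 pools against 2, adjusted by Benjamini-Hochberg over all tested genes, which called 0.0482% of them (6 genes) at an adjusted p under 0.05. The smallest adjusted p among the enzymes was 0.291, for Afmid. At an unadjusted p under 0.05 there were 7 enzymes, all lower in KO, which is 19.4% of the enzymes against 3.92% of all tested genes. When limma's prior variance was allowed to follow the mean intensity, it called 5 enzymes, all lower (13.9%, against 0.698% of all tested genes): Afmid, Oat, Hal, Hpd and Got1. Without any 1 of the 4 pools this second fit called none of them, the smallest adjusted p among the enzymes then being 0.075 to 0.192, and with the arrays centred on their medians it called 2, Afmid and Hal. Got1 was also not called by it with no filter on dim genes or with probe sets averaged, where the other 4 were.

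**Figure D1:**
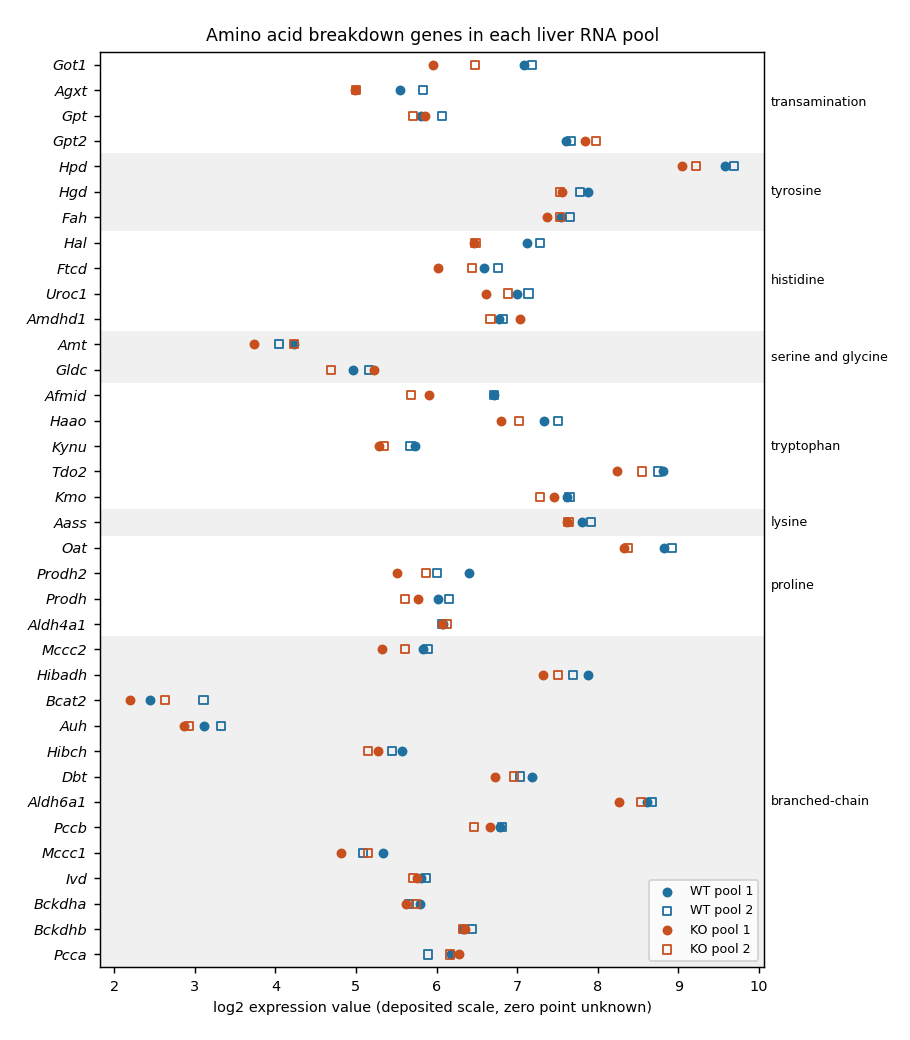
Log2 expression value of each measured enzyme (horizontal axis, zero point unknown) in the 4 liver RNA pools, with genes grouped by route on shaded bands; filled symbols are pool 1 and open squares pool 2, blue for WT and orange for KO. In 25 of the 36 genes both orange symbols lie to the left of both blue ones.

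The promoters of the 5 enzymes called by that second fit are printed here because these genes, from 5 different routes, had the smallest adjusted p in it. Each is the RefSeq window in assembly GRCm38.p6 from 250 bases before to 50 bases after the start of the gene, 300 bases in all, written 5′ to 3′ on the strand of the gene. Capitals mark matches, on either strand, to 10 short strings, those of transcription factors and of the TATA box, spelled out in the paragraph after the sequences. The windows are Afmid chr11:117825669-117825968 on the plus strand, Hal chr10:93488518-93488817 on the plus strand, Got1 chr19:43524556-43524855 on the minus strand, Hpd chr5:123182674-123182973 on the minus strand and Oat chr7:132576349-132576648 on the minus strand.
Afmid: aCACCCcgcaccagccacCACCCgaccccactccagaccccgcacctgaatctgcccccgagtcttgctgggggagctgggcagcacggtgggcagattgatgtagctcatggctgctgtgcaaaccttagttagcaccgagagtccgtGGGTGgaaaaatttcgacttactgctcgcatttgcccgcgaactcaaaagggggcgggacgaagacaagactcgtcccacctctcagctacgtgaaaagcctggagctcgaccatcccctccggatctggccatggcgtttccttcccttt
Hal: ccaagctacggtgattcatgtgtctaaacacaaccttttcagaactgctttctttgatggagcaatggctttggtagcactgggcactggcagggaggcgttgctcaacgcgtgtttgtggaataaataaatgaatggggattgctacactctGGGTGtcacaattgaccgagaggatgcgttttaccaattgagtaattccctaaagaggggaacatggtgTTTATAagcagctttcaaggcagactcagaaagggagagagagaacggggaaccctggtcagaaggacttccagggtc
Got1: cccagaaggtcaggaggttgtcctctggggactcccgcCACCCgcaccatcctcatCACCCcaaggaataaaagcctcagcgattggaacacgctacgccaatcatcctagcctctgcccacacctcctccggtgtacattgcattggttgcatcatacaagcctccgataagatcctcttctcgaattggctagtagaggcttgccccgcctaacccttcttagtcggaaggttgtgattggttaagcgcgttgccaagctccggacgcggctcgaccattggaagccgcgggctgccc
Hpd: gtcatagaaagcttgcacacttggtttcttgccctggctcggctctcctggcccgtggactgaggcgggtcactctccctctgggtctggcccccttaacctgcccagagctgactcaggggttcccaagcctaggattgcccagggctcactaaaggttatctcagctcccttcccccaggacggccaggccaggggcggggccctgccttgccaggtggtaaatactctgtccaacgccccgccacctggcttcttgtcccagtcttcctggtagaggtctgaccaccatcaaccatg
Oat: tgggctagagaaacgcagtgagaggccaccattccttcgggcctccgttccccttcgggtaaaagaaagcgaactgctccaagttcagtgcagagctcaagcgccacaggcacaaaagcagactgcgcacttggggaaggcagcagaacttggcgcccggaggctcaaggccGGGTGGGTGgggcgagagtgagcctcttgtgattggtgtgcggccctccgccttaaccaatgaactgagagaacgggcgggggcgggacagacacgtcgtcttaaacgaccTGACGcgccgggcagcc

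The string of Krüppel-like factors, CACCC, was the commonest match among these windows, with 3 in Afmid (that at -101 as its reverse complement) and 2 in Got1. Hal held the reverse complement of this string at -97 from the start, and that of the TATA box string, TATAAA, at -28. In Oat the reverse complement of the Krüppel string occurred at -78 and -74 and overlapped itself. The shortened cAMP response element, TGACG, lay 33 bases after the start of Oat. No string that was searched for occurred in the Hpd window. In all, the table held 37 windows of 33 of the 36 measured enzymes, and the Krüppel string occurred in 25 of these (67.6%), against 57.5% of the 32851 windows of all genes. The shortened cAMP element occurred in 4 (10.8%, against 20.8%), and the TATA box string also in 4 (10.8%, against 13.6%). The string GTTAAT, of the liver-enriched factor family HNF1, was found in 4 (10.8%, against 7.10% of all windows). For the nuclear receptor HNF4 the string AAAGTC was found in 5 (13.5%, against 13.9% of all windows). The glucocorticoid receptor's string, TGTTCT, was found in 6 (16.2%, against 19.0% of all windows). For the C/EBP family the string TTGCAAT was found in 2, those of Agxt and Prodh2 (5.41%, against 2.22% of all windows). A longer string for each of C/EBP, the cAMP response element and HNF4 had no match in the enzymes' windows: TTGCGCAA (0.183% of all windows), then TGACGTCA, which contains the shortened element (1.79% of all windows), and last CAAAGTCCA, which contains the shorter HNF4 string (0.475% of all windows). The enzymes' windows were slightly richer in G and C, with a median of 55.7% against 52.7%. These are matches of letters and do not mark bound sites.

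In tryptophan breakdown all 5 enzymes were lower in KO with no overlap between genotypes. Such lower and separate pools occurred in 19.5% of all tested genes and in 42.5% of those at least as bright as the median enzyme. The route leads from tryptophan over kynurenine towards NAD and acetyl-CoA, and its median difference was -0.39. Afmid, kynurenine formamidase, the second enzyme of the route, stood at 6.72 and 6.71 in WT and at 5.91 and 5.69 in KO. The WT pools were nearly equal and both KO pools lay well below them, a difference of -0.92 ± 0.20 (SE), or 1.89-fold lower (limma, adjusted p = 0.291; 0.018 with a variance that follows intensity). Tdo2, tryptophan dioxygenase, which commits tryptophan to the route, was lower by less, with 8.81 and 8.75 in WT and 8.24 and 8.55 in KO. Its difference was -0.39 ± 0.21 (SE), and KO pool 1 was the lower of the KO pools.

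Further down the route, Haao, the dioxygenase that opens the ring of hydroxyanthranilate, was 7.34 and 7.51 in WT and 6.80 and 7.03 in KO. That is a difference of -0.51 ± 0.20 (SE; limma, adjusted p = 0.484), with every KO value below every WT value. Kynu, kynureninase, which splits off alanine, was 5.74 and 5.68 in WT and 5.29 and 5.35 in KO. Its pools were tight within each genotype, and the difference was -0.39 ± 0.19. Kmo, kynurenine monooxygenase, differed least in the route, at -0.26 ± 0.19 (SE).

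Afmid lies head to head with Tk1, thymidine kinase, in the RefSeq gene table, and the promoter windows of the pair share 4 bases. Tk1 is no amino acid enzyme and was looked at after the values of Afmid were known. It was 4.54 and 4.47 in WT and 2.48 and 3.36 in KO, a difference of -1.58 ± 0.32 (SE; limma, adjusted p = 0.269; 0.046 with a variance that follows intensity). Both genes of the pair were thus lower in both KO pools.

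Transamination was split. Its median was -0.43, but the cytosolic aspartate enzyme was lower and the mitochondrial alanine enzyme was higher in KO. Got1, the cytosolic aspartate aminotransferase, which also serves the malate-aspartate shuttle, was 7.08 and 7.18 in WT and 5.96 and 6.48 in KO. KO pool 1 was the lower of the KO pools, both lay below both WT pools, and the mean difference was -0.92 ± 0.24 (SE), or 1.89-fold lower (limma, adjusted p = 0.338; 0.041 with a variance that follows intensity). Agxt, alanine-glyoxylate aminotransferase, which removes glyoxylate before it becomes oxalate, was 5.54 and 5.83 in WT and 4.992 and 5.004 in KO. Here the KO pools were almost equal and the spread was in WT, and the difference was -0.69 ± 0.20 (SE; limma, adjusted p = 0.377; 0.115 with a variance that follows intensity).

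The alanine aminotransferases are a pair of paralogues that interconvert alanine and pyruvate in the cytosol (Gpt) and in mitochondria (Gpt2). Gpt was 5.81 and 6.07 in WT and 5.85 and 5.70 in KO, so that KO pool 1 lay between the WT pools and the difference was -0.16 ± 0.21 (SE). Gpt2 was 7.61 and 7.66 in WT and 7.85 and 7.98 in KO. It was the one enzyme of the list with both KO pools above both WT pools, by 0.28 ± 0.19 (SE; limma, adjusted p = 0.682; 0.300 with a variance that follows intensity).

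The 3 measured enzymes of tyrosine breakdown, which converts tyrosine to fumarate and acetoacetate, were all lower in KO without overlap, with a median of -0.29. The share of all tested genes lower without overlap was 19.5%, or 42.5% among those at least as bright as the median enzyme. Hpd, hydroxyphenylpyruvate dioxygenase, was 9.58 and 9.69 in WT and 9.05 and 9.22 in KO. Each genotype's pools lay close together, and the difference was -0.50 ± 0.20 (SE), or 1.41-fold lower (limma, adjusted p = 0.481; 0.032 with a variance that follows intensity). Hgd, homogentisate dioxygenase, the next step, was 7.88 and 7.79 in WT and 7.55 and 7.53 in KO, a difference of -0.29 ± 0.19. Fah, fumarylacetoacetase, the last enzyme of the route, differed by -0.15 ± 0.20, with WT pool 1 only just above KO pool 2 (7.55 against 7.53). Gstz1, maleylacetoacetate isomerase, stands between Hgd and Fah in the route, and its only probe set, which also carries the name of Pomt2, was 8.81 and 8.87 in WT and 8.79 and 8.84 in KO, values that overlap.

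Histidine breakdown, which yields glutamate and a folate-bound carbon unit, had a median of -0.38. Of its 4 enzymes 3 were lower without overlap (75%). That share was 19.5% over all tested genes and 42.5% among those at least as bright as the median enzyme. The route's median was -0.21 without KO pool 1 and -0.56 without KO pool 2. Hal, histidase, the entry step, was 7.12 and 7.29 in WT and 6.46 and 6.48 in KO. The KO pools were almost equal and both lay below WT, a difference of -0.73 ± 0.19 (SE), or 1.66-fold lower (limma, adjusted p = 0.335; 0.026 with a variance that follows intensity). Uroc1, urocanase, the second step, differed by -0.32 ± 0.21 (SE). Amdhd1, imidazolonepropionase, the next step, had no clear direction: at 7.03 and 6.67 its KO pools lay on either side of the WT pools at 6.77 and 6.82. Ftcd, formimidoyltransferase cyclodeaminase, which hands the carbon unit to tetrahydrofolate, was 6.58 and 6.76 in WT and 6.02 and 6.45 in KO. Its difference was -0.44 ± 0.23 (SE), with KO pool 1 the lower.

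Proline and ornithine breakdown had a median of -0.46 over 4 enzymes, 3 of them lower without overlap (75%, against 19.5% of all tested genes). Among genes at least as bright as the dimmest enzyme this share was 24.5%, and among those at least as bright as the median enzyme 42.5%. Oat, ornithine aminotransferase, which links ornithine to glutamate and proline, was 8.83 and 8.92 in WT and 8.33 and 8.38 in KO. It had the steadiest of the differences past an unadjusted p of 0.05, between -0.57 and -0.48 whichever pool was left out, with a mean of -0.53 ± 0.19 (SE), or 1.44-fold lower (limma, adjusted p = 0.439; 0.026 with a variance that follows intensity). The paralogues Prodh, proline dehydrogenase, and Prodh2, which oxidises hydroxyproline, were both lower. Prodh was 6.01 and 6.15 in WT and 5.76 and 5.61 in KO, a difference of -0.40 ± 0.20. Prodh2 was 6.40 and 6.01 in WT and 5.504 and 5.869 in KO, a difference of -0.52 ± 0.24 with a wide spread in both genotypes. Aldh4a1, the mitochondrial dehydrogenase that both proline and hydroxyproline breakdown share and that takes up the product of Oat, stood at 6.08 and 6.06 in WT and 6.07 and 6.13 in KO. These values overlap, and the difference was 0.03 ± 0.19 (SE), or -0.02 with the arrays centred on their medians.

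**Figure D2:**
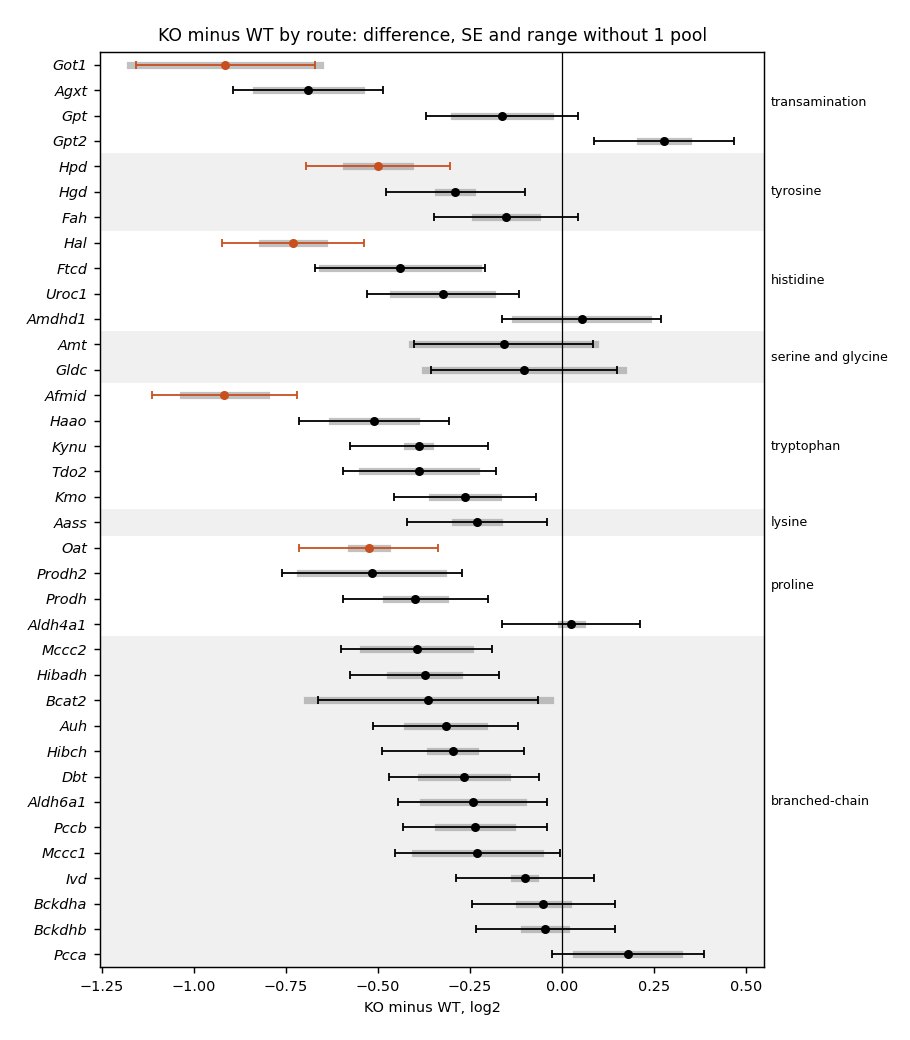
KO minus WT difference of each enzyme on the log2 scale (points), with the limma SE (thin bars) and the range of the difference when each of the 4 pools is left out in turn (thick grey bars), grouped by route. Orange marks the 5 enzymes called when the variance follows intensity; 32 points lie left of 0, and the grey bar crosses 0 in 6 genes.

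The branched-chain route is the largest, with 13 enzymes, and its differences were small. In KO 12 were lower, 8 of them without overlap (61.5%, against 19.5% of all tested genes), and the median was -0.24. Among genes at least as bright as the dimmest enzyme 24.5% were lower without overlap, and among those at least as bright as the median enzyme 42.5%. Without KO pool 1 the route's median was -0.15. None of its enzymes had an unadjusted p under 0.05. In the branched-chain keto acid dehydrogenase, the committing step, the subunits Bckdha and Bckdhb differed by -0.05 ± 0.19 and -0.04 ± 0.19 (SE), overlapped between genotypes and turned to 0.03 and 0.04 with a further quantile normalization. Dbt, the subunit that carries the lipoyl group, differed by -0.27 ± 0.20 without overlap. Bcat2, the mitochondrial aminotransferase that starts the route, differed by -0.36 ± 0.30 with overlapping pools, from 2.20 to 3.11, and was the dimmest of the enzymes.

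In the leucine branch, Mccc2, a subunit of methylcrotonyl-CoA carboxylase, was 5.83 and 5.89 in WT and 5.32 and 5.61 in KO. Its difference of -0.39 ± 0.21 (SE; limma, adjusted p = 0.591) became -0.25 without KO pool 1, and its partner subunit Mccc1 differed by -0.23 ± 0.22 with overlapping pools. Auh, the hydratase that follows, differed by -0.32 ± 0.20, and Ivd, isovaleryl-CoA dehydrogenase, by only -0.10 ± 0.19. In the valine branch, Hibadh, hydroxyisobutyrate dehydrogenase, was 7.88 and 7.70 in WT and 7.32 and 7.51 in KO, a difference of -0.37 ± 0.20 (SE). Hibch, the hydrolase before it, differed by -0.30 ± 0.19 and Aldh6a1, the semialdehyde dehydrogenase after it, by -0.24 ± 0.20, all 3 without overlap. Aldh6a1 has a second, dimmer probe set, in which the values were 1.23 and 1.92 in WT and 0.61 and 1.41 in KO. The subunits of propionyl-CoA carboxylase, which valine and isoleucine breakdown share, went apart: Pccb differed by -0.24 ± 0.20 without overlap, and Pcca by 0.18 ± 0.21 with overlap.

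The remaining routes held few measured genes. Aass, the enzyme with which lysine breakdown starts, was 7.80 and 7.92 in WT and 7.62 and 7.64 in KO, a difference of -0.23 ± 0.19 (SE) without overlap. Of the serine and glycine genes, the glycine cleavage system was measured and the serine dehydratases Sds and Sdsl were not. Gldc, its decarboxylase, was 4.96 and 5.16 in WT and 5.22 and 4.69 in KO, and Amt, its aminomethyltransferase, was 4.23 and 4.04 in WT and 3.73 and 4.22 in KO. Both overlapped, with differences of -0.10 ± 0.25 and -0.16 ± 0.24 (SE), and they changed sign when the lower KO pool was left out.

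A second list of 43 genes, chosen by function but with earlier results of these data known, covered breakdown enzymes outside the first. Of these, 36 were in the table and 34 were tested. In KO 26 were lower and 8 higher, and the median was -0.24. Without overlap 20 were lower (58.8%, against 19.5% of all tested genes) and 1 was higher. The list is bright, with a median of 6.03 above the table median. Of genes at least as bright as the median enzyme, 42.5% were lower without overlap. With a variance that follows intensity, 4.18% of those bright genes were called lower. None of the list was called, with either variance model. At an unadjusted p under 0.05 there were 5, all lower (14.7%, against 3.92% of all tested genes and 6.37% of those bright genes). The 4 genes of this list with the smallest p were Kyat1, Kyat3, Aadat and Acadsb. Kyat1, an aminotransferase that acts on kynurenine, was 4.77 and 4.56 in WT and 3.68 and 3.82 in KO, a difference of -0.92 ± 0.20 (SE; limma, adjusted p = 0.297). Kyat3, its paralogue, was 6.25 and 6.34 in WT and 5.72 and 5.81 in KO, a difference of -0.54 ± 0.19 (adjusted p = 0.436), and Aadat, the aminoadipate aminotransferase, was 7.07 and 6.76 in WT and 6.21 and 6.44 in KO, a difference of -0.59 ± 0.22 (adjusted p = 0.458). Acadsb, the acyl-CoA dehydrogenase of isoleucine breakdown, was 6.29 and 6.22 in WT and 5.59 and 5.78 in KO, a difference of -0.57 ± 0.20 (adjusted p = 0.426). In each of these 4 genes every KO value lay below every WT value.

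Known regulators of these enzymes were taken as a further list of 15 genes, also with earlier results known, of which 14 were tested. In KO 11 were lower and 3 higher, and the median was -0.28. Without overlap 7 were lower (50%) and 1 was higher, against 19.5% and 22.2% of all tested genes. Among genes at least as bright as the dimmest enzyme, 24.5% were lower without overlap. None of the regulators was called with either variance model. At an unadjusted p under 0.05 there were 2 lower ones (14.3%, against 3.92% of all tested genes) and 1 higher one. Creb1, the transcription factor that glucagon activates through cAMP, was higher, at 3.67 and 3.57 in WT and 4.35 and 4.30 in KO (0.70 ± 0.19, SE; limma, adjusted p = 0.340). Onecut1, a liver-enriched transcription factor, was 5.35 and 5.49 in WT and 4.78 and 4.72 in KO, and Foxo1, which insulin keeps out of the nucleus, was 5.59 and 5.64 in WT and 4.74 and 5.15 in KO. Their differences were -0.67 ± 0.19 and -0.67 ± 0.22 (SE; limma, adjusted p = 0.368 and 0.418). Klf15, a Krüppel-like factor known to control amino acid breakdown, was 6.17 and 6.19 in WT and 5.15 and 5.87 in KO. KO pool 1 was much the lower, and the difference was -0.67 ± 0.28 (SE; limma, adjusted p = 0.504).

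Markers of other liver cells also differed between the genotypes. In RNA of whole liver, fewer cells of a type and less RNA per cell cannot be told apart. Hepatocyte markers had a median difference of -0.10 over 10 genes, of which 7 were lower in KO. Without overlap 6 were lower (60%, against 42.5% of genes at least as bright as the median enzyme) and 1 was higher. The lowest were Asgr1 (-0.33 ± 0.21, SE) and Hnf4a (-0.28 ± 0.19), and the highest was Ttr (0.17 ± 0.20). Their summed log2 level was 92.1 and 91.8 in WT and 90.7 and 91.3 in KO. All 8 macrophage markers were higher, with a median of 0.37 and summed levels of 34.5 and 35.5 in WT and 39.5 and 39.9 in KO. Of 8 markers of stellate cells and fibroblasts, 7 were higher, with a median of 0.70 and sums of 36.5 and 35.3 in WT and 40.5 and 41.2 in KO. Of the 5 tested cholangiocyte markers 4 were higher (median 0.71), and the sums over the 6 measured ones were 9.82 and 7.74 in WT and 11.6 and 13.6 in KO. Cdh1 differed most (1.62 ± 0.28, SE), and Krt19 was the lower one, at -0.06. Krt7, Krt19 and Cftr stayed between 0.01 and 0.93 in all pools, against a table median of 0.54. Endothelial markers had a median of -0.08 over 5 genes, T cell markers one of -0.02 over 4 and B cell markers one of 0.18 over 2. The part of these shifts in the enzymes' lower values was not tested.

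**Figure D3:**
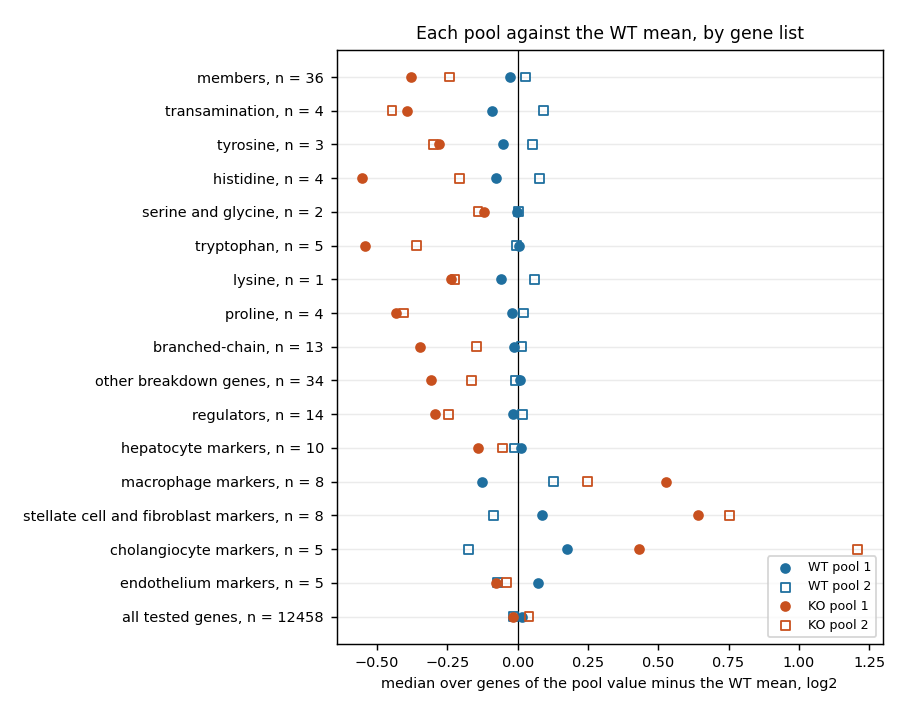
Median, over the genes of each list, of a pool's log2 value minus the WT mean, for the 4 pools (symbols as in the plot of levels); n is the number of tested genes. Both KO pools lie left of both WT pools for the 36 enzymes in the top row (-0.38 and -0.24) and for hepatocyte markers (-0.14 and -0.05), and right of both for macrophage and for stellate cell and fibroblast markers.

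Bright genes were in general slightly lower in KO, and the enzymes are bright. The highest value on each array was 11.90 and 11.81 in WT and 11.54 and 11.69 in KO. The part of such differences between arrays in the enzymes' lower values was not tested. The median enzyme lay 5.86 above the table median and the dimmest, Bcat2, 2.05 above it, so that none entered the test only through the genotype in which it was higher. Among the 958 tested genes at least as bright as the median enzyme, the median difference was -0.09, 42.5% were lower without overlap and 4.18% were called lower with a variance that follows intensity. Of the 18 enzymes in this range, 16 were lower without overlap (88.9%), 4 were called lower by that fit (22.2%) and the median difference was -0.31.

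**Figure D4:**
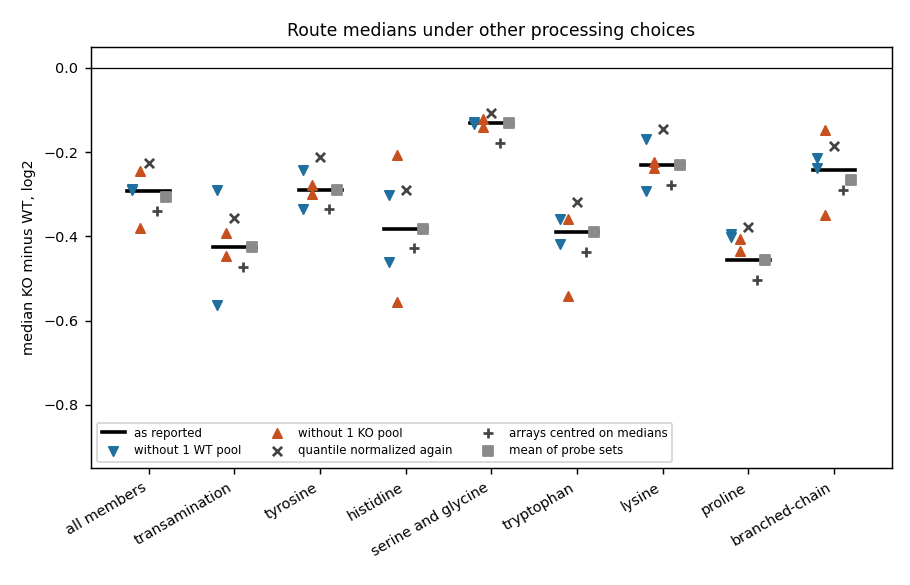
Median KO minus WT difference (vertical axis, log2) over all 36 enzymes and for each route, as reported (black lines), without 1 WT or 1 KO pool (triangles), and with the arrays quantile normalized again, centred on their medians or with probe sets averaged (other symbols). Every symbol lies below 0. Over all enzymes the values without 1 pool run from -0.38 to -0.24, and the value quantile normalized again is -0.22.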

How the data were processed

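The authors deposited log2 values for 41345 probe sets on each of 4 arrays, and these were used as given. Per the submitters' processing notes the authors used oligo, RMA (background correction, quantile normalization and summary of probes) and limma; the sources used here do not state versions, order of steps, genome build or annotation. Biotin labelling started from 400 ng of RNA per the labels' protocols. Array medians were 0.52 and 0.56 in WT and 0.64 and 0.53 in KO, and values ran from -1.12 to 11.9, so the zero point of the scale is unknown. No detection calls or scan batches were used here, and 4 arrays limit the precision.

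Names came from the platform annotation, in which 23521 probe sets carried 1 symbol, 1814 several and 16010 none, and only the first were used. For each gene the probe set with the highest mean was kept, and of 22180 genes the 12458 whose mean reached the table median (0.54) were tested. The genotypes were compared with limma 3.58.1 in R 4.3.3 (lmFit, eBayes; 2 residual and 3.67 prior degrees of freedom) with Benjamini-Hochberg adjustment over all tested genes; calls were made below 0.05. An exact permutation of 2 pools against 2 cannot go below p = 0.333. The p-values rest on the spread between pools, with each gene's variance drawn towards that of the other genes. They do not measure the spread between animals. The main limma fit was run on simulated data with differences larger than those of the enzymes. The fit with a variance that follows intensity was not simulated.

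The enzymes, gene lists and tests were chosen with earlier results of these data known. All enzymes were named with their difference. Pool values were given for the 12 with the smallest p, the 2 of each route with the smallest p, those called and the paralogue pairs, and for other enzymes where they help; of the second list and the regulators the 4 with the smallest p were named. Alternatives were the variance model, a robust prior (statmod 1.5.0), 2 normalizations, 2 filters, averaged probe sets, the pool number as a block and leaving out each pool. Matched pool numbers were not taken to pair the pools. The correlation of the deviations of matched pools from the group means was -0.04. With 2 pools per genotype this cannot decide whether pools were handled in pairs.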

Additional observations from a re-analysis of the deposited data

How the results depend on the processing

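With a variance that follows intensity, 136 genes were called (49 higher, 87 lower) and 5 of the 36 enzymes, against 6 and 0 as reported. With the pool number as a replicate block 2 genes and no enzyme were called, while the block with a variance that follows intensity called 235 genes and 5 enzymes. Leaving out each pool gave 0 to 0 called genes (906 to 1314 at an unadjusted p under 0.05) and 0 to 0 called enzymes. With a variance that follows intensity it gave 67 genes without WT pool 1, 58 without WT pool 2, 2 without KO pool 1 and 19 without KO pool 2, and 0 to 0 enzymes. The other alternatives gave 6 or 7 called genes and no enzyme. Combined with a variance that follows intensity, choices added after seeing the data, centred arrays left 2 enzymes called (Afmid and Hal), and no filter on dim genes or averaged probe sets left 4 each (without Got1); a further quantile normalization, the stricter filter and the robust prior left all 5. The enzyme median was -0.38 to -0.24 without 1 pool. With a further quantile normalization it was -0.22, and 30 of the 36 enzymes were lower. Without 1 pool, the median ran from -0.56 to -0.29 for transamination, -0.56 to -0.21 for histidine, -0.54 to -0.36 for tryptophan, -0.43 to -0.40 for proline and -0.35 to -0.15 for the branched-chain route. With a further quantile normalization it was -0.21 for tyrosine, -0.11 for serine and glycine, -0.15 for lysine and -0.38 for proline, and with centred arrays -0.18 for serine and glycine and -0.50 for proline. Of 432 differences of single enzymes under alternatives, 417 kept their direction and side of the threshold, 5 passed it, and 10 changed sign, in 6 enzymes. Many of the 432 could not change sign. The variance model, the robust prior, the filters and the block leave the difference itself as it was. Averaged probe sets can move only Aldh6a1. Without 1 pool, the difference ran from -0.13 to 0.23 for Amdhd1, from -0.37 to 0.17 for Gldc, from -0.41 to 0.089 for Amt, from -0.12 to 0.017 for Bckdha, from -0.10 to 0.011 for Bckdhb and from -0.0033 to 0.054 for Aldh4a1. With a further quantile normalization Bckdha was 0.033 and Bckdhb 0.040, and with centred arrays Aldh4a1 was -0.022. The cause of these shifts was not tested. No detection calls were used, so how far dim values such as those of Bcat2 lie above background is not known here.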

Other observations

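Grouped by where the enzyme works, a grouping made after the values were seen, the 13 cytosolic enzymes had a median KO minus WT difference of -0.39, with 12 lower and 11 lower without overlap (84.6%). The 22 mitochondrial ones had a median of -0.24, with 19 lower, 13 lower without overlap (59.1%) and 1 higher without overlap. Of all tested genes 19.5% were lower without overlap, and of those at least as bright as the median enzyme 42.5%. The cytosolic enzymes were the brighter class, with a median of 6.30 above the table median against 5.47. Of the 5 enzymes called with a variance that follows intensity, Afmid, Hal, Got1 and Hpd are cytosolic and Oat is mitochondrial. The difference between these classes was not tested. Agxt was placed in neither.

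Aspartate aminotransferase and alanine aminotransferase each have a cytosolic and a mitochondrial form encoded by separate genes. For aspartate, the cytosolic Got1 was lower by -0.92 ± 0.24 (SE), and Got2, its mitochondrial counterpart, named after its values were seen, was 8.98 and 9.16 in WT and 9.15 and 9.03 in KO, a difference of 0.02 ± 0.20. For alanine, Gpt differed by -0.16 ± 0.21 and Gpt2 by 0.28 ± 0.19. Whether the forms differ from each other was not tested.

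Also named after its values were seen, Tat, tyrosine aminotransferase, which feeds Hpd, was 9.55 and 9.54 in WT and 9.001 and 9.237 in KO, a difference of -0.43 ± 0.20 (SE). The sarcosine and dimethylglycine dehydrogenases of choline breakdown, Sardh and Dmgdh, differed by -0.46 ± 0.19 and -0.50 ± 0.19, with both KO pools below both WT pools. Qprt, which takes the product of Haao towards NAD, was the 1 gene of the second list with both KO pools above both WT pools, at 5.06 and 5.10 in WT and 5.30 and 5.67 in KO, a difference of 0.40 ± 0.22.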
